A study of Drosophila melanogaster with 58 samples.

Results

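Heads of flies fed quinapril, an angiotensin-converting enzyme inhibitor prescribed for high blood pressure, were set against heads of flies fed 6 other compounds without the convulsant pentylenetetrazole (PTZ). The comparison took the 4 arrays labelled with quinapril hydrochloride and no PTZ, out of 58 arrays in the series. Their mean was compared with the mean of 6 group means, over 22 arrays: levetiracetam (an antiepileptic), glucosamine hydrochloride (an amino sugar), mannitol (a sugar alcohol), olmesartan medoxonil (an angiotensin receptor blocker), moxifloxacin hydrochloride (an antibiotic, 2 arrays) and gemfibrozil (a fibrate that lowers blood lipids). Every other group held 4 arrays. All flies were Oregon R, a wild-type laboratory strain. They were unmated adult males, 10 days old at collection, kept 30 to a vial at 25 degrees C on the given diet for 7 days. The series, titled as a drug screen for repurposing in neuropsychiatry, measured head RNA on the Affymetrix Drosophila Genome 2.0 array. Groups fed PTZ with quinapril, PTZ with levetiracetam, glucosamine, mannitol or olmesartan, and normal food are used here only beside the main comparison. The series also held groups fed PTZ alone and PTZ with oxaprozin. These enter only the shared fit over 58 arrays and the ranks over all 15 groups. The labels state no doses.

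In mammals quinapril is an ester prodrug that esterases convert to quinaprilat, which occupies the zinc site of angiotensin-converting enzyme, a peptidase that makes angiotensin II. Flies have no known renin-angiotensin system. They do have relatives of the enzyme: Ance and Acer are active peptidases, while Ance-2, Ance-3, Ance-4 and Ance-5 lack residues of the active site.

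Levels are log2 values normalized by the authors with the RMA method, changes are differences of group means on that scale ± SE, and adjusted p-values come from limma with Benjamini-Hochberg adjustment over 18769 probe sets. An adjusted p below 0.05 counts as a call, and rose and fell refer to called changes. Whether arrays of 1 group stem from separate vials or extractions is not stated in the labels. The p-values therefore reflect the spread between arrays alone, and that spread may be technical. The number of arrays limits the precision.

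Some array and tissue measures differed between the groups. For all 58 arrays, the best correlated array belonged to the same group. The signal difference between the 5′ and 3′ control probe sets of eIF-4a and GAPDH lay between -5.59 and -5.46 on the quinapril arrays, against -6.36 to -5.33 on the 22 others. Its group mean was -5.51 for quinapril and -5.5 for mannitol, and -6.21 to -5.71 for the remaining compounds. The bioB hybridization control lay at an upper level on 1 of the 4 quinapril arrays (replicate 4) and on 11 of the 22 others, among them every mannitol, moxifloxacin and gemfibrozil array. Markers of the head tissue were present: phototransduction genes had a mean level of 10.33 to 10.35 on the quinapril arrays, and pan-neuronal genes 9.66 to 9.7. Transcripts of the testis, accessory gland and ejaculatory tract, which are foreign to the head, had a mean level of 3.2 to 3.22 with quinapril, against 3.07 to 4.63 on the other compounds' arrays and 5.43 to 5.46 with normal food. Fewer cells of a type and less RNA per cell cannot be told apart in such samples.

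Quinapril heads differed from the mean of the other compounds in many transcripts by small amounts. Limma called 3836 probe sets higher (20.4% of those tested) and 3777 lower (20.1%), 40.6% in all. Rises of at least 2-fold numbered 34 (0.181% of those tested) and such falls 29 (0.155%). All 4 quinapril arrays lay above all 22 others in 433 probe sets (2.31%) and below them in 449 (2.39%).

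How much quinapril differed depended on the compound set beside it. Against single compounds, quinapril differed in 9255 probe sets from levetiracetam (49.3%), 7949 from moxifloxacin (42.4%), 7029 from gemfibrozil (37.5%), 6344 from glucosamine (33.8%), 6329 from olmesartan (33.7%) and 5164 from mannitol (27.5%). Called changes of at least 2-fold numbered 621 against moxifloxacin and 52 against glucosamine. In 859 probe sets quinapril was called the same way against every compound, higher in 411 and lower in 448, whereas 1453 of the probe sets called against the mean went the other way, also called, against at least 1 compound. When each compound's group mean was the unit (1 quinapril mean against 6 others), limma called 0 probe sets at an adjusted p under 0.05 and 686 at an unadjusted p under 0.05 (3.65%). If no probe set differed, a fraction of 0.05 would be expected under that unadjusted threshold, and the share seen was below it. The median SD between the 6 other group means was 0.146, against 0.0859 within quinapril.

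The greatest rise in a named gene was that of TotC (CG31508, chromosome arm 3R), a Turandot peptide secreted into the haemolymph under stress. TotC had levels of 9.1, 9, 8.98 and 8.97 on the quinapril arrays, against a lowest of 6.43, a median of 7.41 and a highest of 8.23 on the others. The 4 arrays lay above all 22, with a change of 1.63 ± 0.059 (3.09-fold, adjusted p = 1.35e-27). The excess was 0.82 over levetiracetam and 0.94 over mannitol, where TotC was also high, and 2.45 over glucosamine. Quinapril had the highest TotC mean of the 15 groups of the series. The list of Turandot and JAK/STAT genes did not move with it: 3 of 10 rose, 2 fell and 5 were not called. Their median change was 0.02, and over all genes 21.8% rose and 26% fell.

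Genes of muscle and of the cytoskeleton were among the other large rises. The gene up (CG7107), troponin T of the thin filament, had levels of 7.55, 7.52, 7.47 and 7.5 with quinapril, against 5.43 at the lowest, 6.14 at the median and 7.09 at the highest with the other compounds. The groups did not overlap, and the change was 1.32 ± 0.0533 (adjusted p = 7.03e-26). Msp300, a giant nesprin that links nuclei to actin, rose by 1.08 ± 0.0391, with quinapril arrays at 9.38 to 9.43 and the others at 7.38 to 9.04. That value came from the brightest of its 6 probe sets, and the other 5 gave changes of 0.06 to 0.39. Muscle genes as a list did not share this direction: 6 of 21 rose, 8 fell and 7 were not called, beside 21.8% higher and 26% lower over all 11982 genes (47.7% in all). Among those that fell were TpnC4 and TpnC41C, troponin C subunits of adult muscle (changes of -0.70 and -0.40). The change of TpnC41C was -0.21 without the gemfibrozil group.

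**Figure D1:**
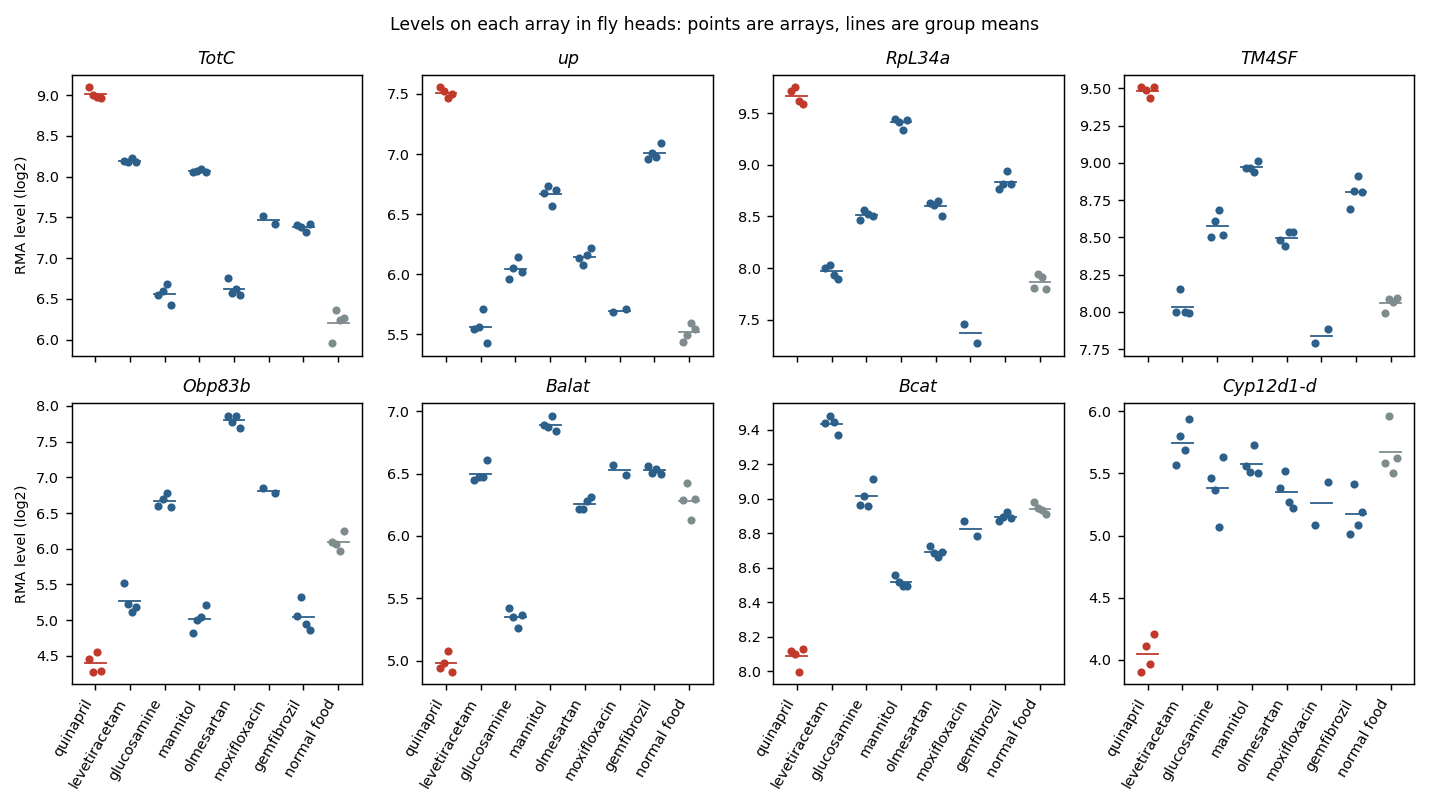
Level of 8 genes on each array (log2 scale, vertical axis) for quinapril, the 6 other compounds and normal food. Points are arrays and lines are group means. The quinapril points lie above all other compounds for TotC, up, RpL34a and TM4SF and below all of them for Obp83b, Balat, Bcat and Cyp12d1-d, while the other compounds are spread widely among themselves.

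RpL34a (CG6090), a protein of the large cytosolic ribosomal subunit, had levels of 9.71, 9.75, 9.62 and 9.6 in quinapril heads, against 7.27, 8.59 and 9.45 as the lowest, median and highest of the others. Its arrays did not overlap, and the change was 1.22 ± 0.0383 (adjusted p = 3.8e-30), although mannitol came within 0.26 of quinapril and the change against moxifloxacin was 2.31. Rbp6, an RNA-binding protein of the Musashi family, rose by 1.27 ± 0.0609. Its 5 dimmer probe sets moved by 0.05 to 0.48. TM4SF, a tetraspanin of the cell membrane, rose by 1.03 ± 0.0382, with levels of 9.44 to 9.51 in quinapril heads and 7.79 to 9.01 in the others. Hk, the beta subunit of Shaker potassium channels, rose by 0.91 ± 0.0421; that value is for the brightest probe set, and the dimmer ones gave 0.10 and 0.17. MAN1, a protein of the inner nuclear membrane, rose by 0.91 ± 0.0645. The remaining genes of the 15 greatest rises whose arrays did not overlap were CG42355, CG5273, CG12239, CG9003, Xe7, CG31221 and CG1316, with changes of 1.45, 1.09, 1.08, 1.07, 1.04, 1.02 and 1.02. The mean over probe sets was 0.83 for CG42355. Quinapril was called higher than every single compound for 14 of the 15. That direction was fixed by the choice of genes with quinapril arrays above all others, so the count is a description. Mannitol was the nearest compound for 9 of them, and over all 15 groups, those with PTZ included, quinapril had the highest mean for 4.

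The deepest fall with no overlap was that of Obp83b (CG11422, arm 3R), an odorant-binding protein of the antenna. Its levels were 4.45, 4.28, 4.56 and 4.29 in quinapril heads, against 4.83, 5.42 and 7.86 as the lowest, median and highest of the other 22 arrays. The change was -1.71 ± 0.0736 (adjusted p = 9.36e-25), but the size depended on the compound: it was -3.40 against olmesartan and -0.63 against mannitol. Cyp12d1-d (CG33503), a mitochondrial cytochrome P450 linked to insecticide handling, had levels of 3.91, 4.11, 3.97 and 4.21 with quinapril, against 5.01, 5.45 and 5.94 with the others. Here the other compounds lay close together, with changes from -1.13 against gemfibrozil to -1.70 against levetiracetam. The change was -1.37 ± 0.0871 (adjusted p = 2.03e-18). The probe set may also read the near-identical copy Cyp12d1-p, so the 2 genes cannot be separated.

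Balat (CG3790), a beta-alanine transporter that serves histamine recycling in the visual system, had levels of 4.95, 4.99, 5.08 and 4.92, against 5.27, 6.48 and 6.96 in the other compounds. Glucosamine heads were low as well (quinapril change of -0.37 against them), and the change against the mean of 6 was -1.36 ± 0.0424 (adjusted p = 3.77e-30). The gene e (ebony), which joins beta-alanine to histamine in lamina glia, fell by 0.45 ± 0.0509, with overlapping arrays and a change of -0.28 without the mannitol group and -0.17 on arrays at the lower bioB level. Bcat (CG1673), the branched-chain amino acid transaminase, had 8.12, 8.1, 8 and 8.13 in quinapril heads, against 8.5, 8.88 and 9.48 in the others. It was the lowest of the 15 groups, with a change of -0.81 ± 0.0268 (adjusted p = 4.19e-29). Further falls without overlap were those of jp, the junctophilin that ties the sarcoplasmic reticulum to the cell membrane (-0.76 ± 0.0744), Loxl2, a lysyl oxidase (-0.75 ± 0.0547), Nadsyn, the NAD synthetase (-0.71 ± 0.0976, or -0.47 with the 5′ minus 3′ signal as a covariate), and TpnC4 (-0.70 ± 0.0526). The kinase hep, which activates JNK, fell by 0.72 ± 0.0450 on its brightest probe set, while another of its probe sets rose by 0.28 and the third was at 0. CG5107, CG31955, lncRNA:CR32368, CG33468, Dyro and meso18E made up the rest of the 15, with changes of -0.91, -0.80, -0.79, -0.74, -0.73 and -0.72. Quinapril was called lower than every single compound for 13 of these 15, a direction that the choice of genes without overlap had fixed. It had the lowest mean of all 15 groups for 10.

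**Figure D2:**
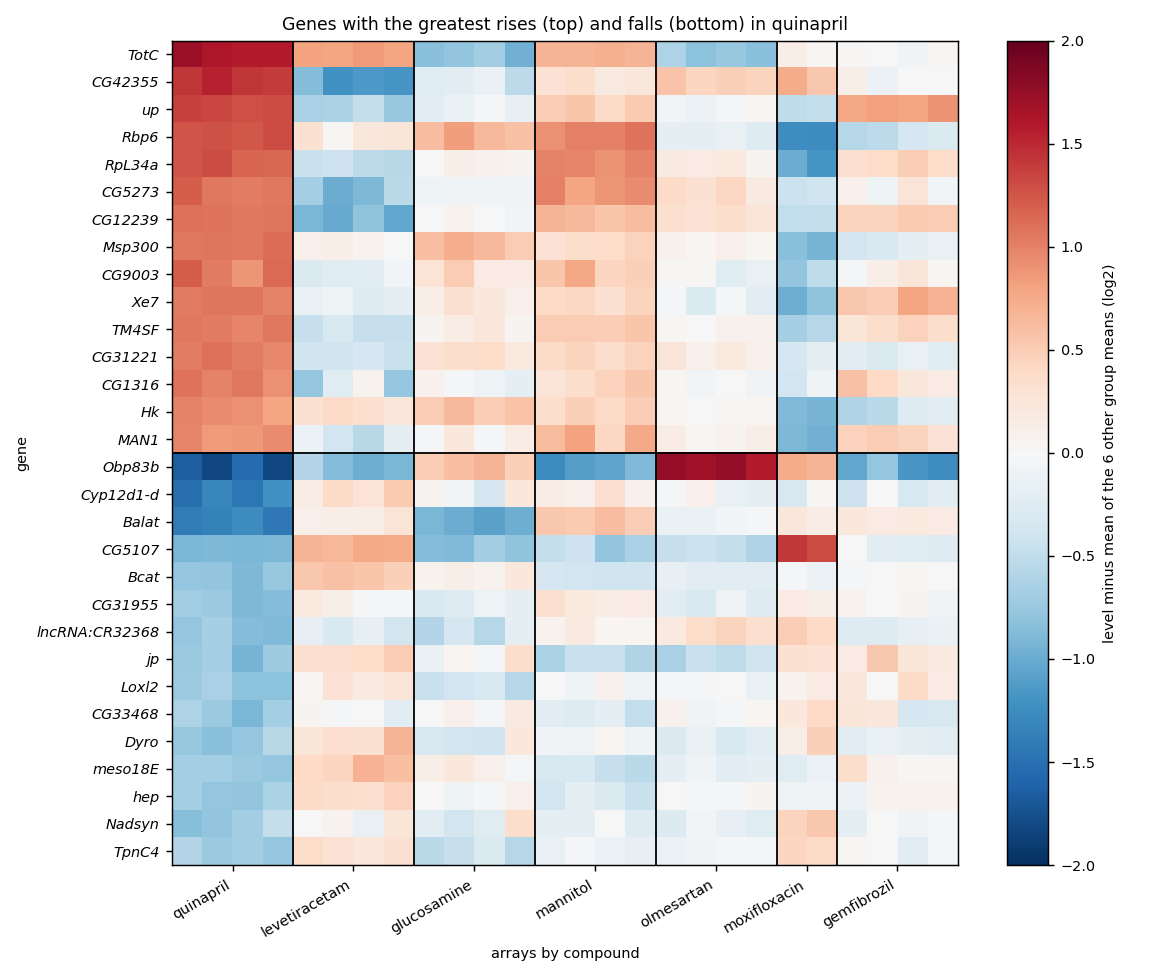
Level of the 15 genes with the greatest rises (upper block) and the 15 with the greatest falls (lower block) among genes whose quinapril arrays did not overlap the others. Each column is an array, grouped by compound, and colour gives the level minus the mean of the 6 other group means (log2). The 4 quinapril columns are uniform, mannitol is red for many of the rises, and Obp83b is high in olmesartan and low in mannitol and gemfibrozil.

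The 63 probe sets past 2-fold were made up differently in each direction. Of the 29 falls, 25 had arrays that overlapped the other compounds, against 4 of the 34 rises. Genes of the male reproductive tract were among the falls. Acp98AB, an accessory gland protein, had levels of 3.02, 3.25, 3.32 and 3.26 with quinapril, against 2.49, 3.49 and 9.5 with the others. The change was -2.52 ± 0.0913 against the mean of 6, with -6.16 against levetiracetam, -5.25 against moxifloxacin, -4.16 against gemfibrozil and 0.29 against both glucosamine and mannitol. SP, the sex peptide of the seminal fluid, showed the same arrangement, with changes of -4.92 and -5 against levetiracetam and moxifloxacin and -0.04 against glucosamine. Of the 58 measured testis, accessory gland and ejaculatory tract genes 35 fell, 4 rose and 0 lay below all 22 arrays. Over all genes 26% fell, 21.8% rose and 3.21% lay below all 22. The part of this tissue in other falls was not tested.

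The fly relatives of the enzyme that the drug class inhibits differed little. Acer, one of the active relatives of angiotensin-converting enzyme, had levels of 9.27, 9.22, 9.23 and 9.28 with quinapril, against 8.63, 8.93 and 9.62 in the other compounds, and rose by 0.17 ± 0.0305 (adjusted p = 4.36e-06). The rise of Acer was 0.10 without the levetiracetam group, 0.26 without mannitol and 0.26 on arrays at the lower bioB level. On arrays at the upper level, with 1 quinapril array, it was not called (0.03, adjusted p = 0.814). Ance, the other active enzyme, had 6.84, 6.89, 6.84 and 6.84, against 6.25, 6.6 and 7.31. Its change of 0.10 ± 0.0510 was not called (adjusted p = 0.109), though it was called without the mannitol group (0.19, adjusted p = 0.00222) or without the olmesartan group (0.17, adjusted p = 0.00516). Ance-4 (0.10 ± 0.0310) and Ance-3 (0.09 ± 0.0349) passed the threshold, Ance-5 (0.04 ± 0.0392, adjusted p = 0.436) and Ance-2 (-0.06 ± 0.0658, adjusted p = 0.48) did not, and Ance-2 was dim on every array, at 1.97 to 2.16 with quinapril. The calls of Ance-3 and Ance-4 were lost without the levetiracetam group (adjusted p = 0.219 and 0.201), without glucosamine (0.184 and 0.0573) without gemfibrozil (0.0696 and 0.373) and with the 5′ minus 3′ covariate (0.106 and 0.134). That of Ance-3 was also lost without quinapril replicate 3 (0.157) or 4 (0.108) and on arrays at the lower bioB level (0.0643). Ance-4 was at 0.20 without mannitol and 0.17 without olmesartan, and Ance-3 at 0.15 without olmesartan. In all 6 the quinapril arrays overlapped the others. Quinapril was below mannitol and olmesartan in Acer (changes of -0.25 and -0.21) and in Ance (-0.34 and -0.25), and above levetiracetam and glucosamine in both. Against normal food, 5 of the 6 were higher in quinapril heads, by 0.55 to 0.86, with Ance-2 as the exception (0.03).

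**Figure D3:**
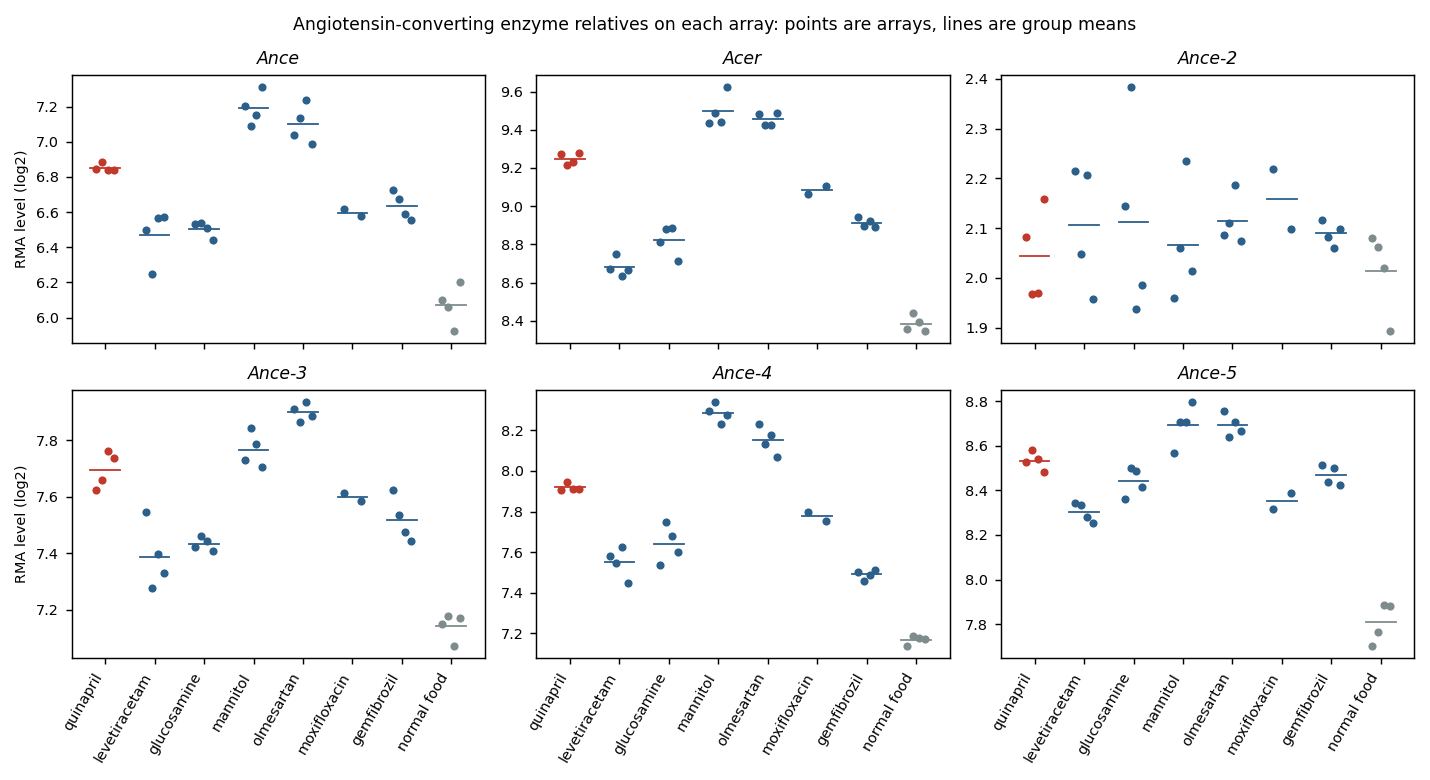
Level of the 6 relatives of angiotensin-converting enzyme on each array (log2 scale, vertical axis) for quinapril, the 6 other compounds and normal food, with points for arrays and lines for group means. Among the 7 compounds quinapril is below only mannitol and olmesartan for every gene but Ance-2, and normal food is the lowest group for those 5 genes.

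Other peptidases of the membrane fell more often than they rose. Of 26 neprilysin-type genes, which cleave neuropeptides and other small peptides, 1 rose, 6 fell and 19 were not called. Nep4 rose by 0.26 ± 0.0450 with no overlap, at 7.33 to 7.52 in quinapril heads and 6.95 to 7.32 in the others, and Nep6 fell by 0.27 ± 0.0279. The call of Nep4 was lost on arrays at the upper bioB level, with 1 quinapril array (0.16, adjusted p = 0.181). Both shares, 3.85% and 23.1%, were below those over all genes.

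Genes that could act on the compound itself split both ways. Among 12 carboxylesterases, the class that opens ester prodrugs, 4 rose and 4 fell. Over all genes 21.8% rose and 26% fell. Examples are alpha-Est9 (0.47 ± 0.0751) and Est-P (-0.33 ± 0.0719). Of 80 cytochrome P450s 14 rose (17.5%) and 27 fell (33.8%), with a median change of -0.06, beside -0.033 over all genes. A total of 5 of them lay below all 22 arrays, beside 3.21% of all genes. Cyp4s3 was at 5.11 to 5.53 with quinapril and 5.76 to 6.55 with the others (-0.66 ± 0.0627). Cyp6a8, a xenobiotic-responsive enzyme, fell by 0.77 ± 0.0348 with overlapping arrays, and Cyp9c1 rose by 0.55 ± 0.0663 (0.35 with the 5′ minus 3′ covariate). Cyp4g1, the oenocyte enzyme that makes cuticular hydrocarbons, was at 5.4 to 5.57 with quinapril, inside a span of 3.86 to 9.39 over the other compounds. Its change of -1.46 hid opposite signs: it was -3.83 against both olmesartan and moxifloxacin and 1.41 against mannitol. Glutathione S-transferases rose in 12 (35.3%) and fell in 9 (26.5%) of 34. Among 11 drug transporters, Mrp5 rose by 0.40 ± 0.0595, Mdr65, the P-glycoprotein of the blood-brain barrier, rose by 0.23 ± 0.0327, and Oatp58Dc, an organic anion transporter, fell by 0.24 ± 0.0386 with no overlap. On arrays at the upper bioB level, with 1 quinapril array, the calls of alpha-Est9 (0.29, adjusted p = 0.166), Est-P (-0.27, 0.106) and Mdr65 (0.05, 0.658) were lost.

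Phototransduction, pan-neuronal, ion channel and neuropeptide genes rose more often than they fell, while other neural lists moved both ways. The shares over all genes were 21.8% higher and 26% lower. Cholinergic genes rose in 5 and fell in 6 of 15, synaptic vesicle and active zone genes rose in 10 and fell in 8 of 24, and monoamine genes rose in 7 and fell in 9 of 27. Of 20 phototransduction genes 12 rose, 2 fell and 7 lay above all 22 arrays (beside 2.31% of all genes above and 3.21% below). The scaffold inaD had levels of 10.4, 10.49, 10.44 and 10.45 with quinapril, against 8.82, 9.58 and 10.33 with the others, a change of 0.86 ± 0.0363. The groups did not overlap, and the change against mannitol was 0.19. The cation channel trpl rose by 0.74 ± 0.0327 and Gbeta76C, the G protein beta subunit of photoreceptors, by 0.55 ± 0.0322, both with no overlap. The diacylglycerol lipase inaE and the lipid phosphatase laza fell, by 0.27 and 0.12. Averaging probe sets ended the call of inaE (-0.04, adjusted p = 0.365). The call of laza was lost without the levetiracetam group (-0.08, adjusted p = 0.129), without gemfibrozil (0.0696) or without quinapril replicate 1 (0.0622), 3 (0.0623) or 4 (0.0772). The mean level of the list, 10.33 to 10.35, lay above every other compound's array (9.91 to 10.23), and it was 10.03 to 10.04 with normal food. Among the 42 lists, the neuropeptide precursors were the other one with every quinapril array above the rest (6.94 to 6.96 against 6.64 to 6.91). The olfactory, gustatory and ionotropic receptors, which are dim on this array, were the only list below (2.6 to 2.63 against 2.65 to 2.73).

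Of 15 pan-neuronal genes 11 rose and 1 fell, with a median change of 0.20, yet the list mean of 9.66 to 9.7 fell within the span of the other compounds (9.12 to 9.76), with glucosamine arrays at 9.71 to 9.76. The vesicle protein nSyb was at 9.16, 9.11, 9.18 and 9.07, against 7.41, 8.74 and 9.04, and rose by 0.83 ± 0.0434. The microtubule protein futsch rose by 0.62 ± 0.0292, brp of the active zone by 0.59 ± 0.0669 and para, the sodium channel, by 0.65 ± 0.0795, all with overlap. When probe sets of a gene were averaged, the change was 0.09 for brp and 0.30 for futsch. Of 30 ion channel genes 19 rose and 5 fell, and Shaw, a potassium channel, was above all other arrays (0.71 ± 0.0541). The Shaker regulator qvr rose by 0.66 ± 0.0283 (0.28 as the mean of its probe sets). Rdl, the GABA-gated chloride channel, had 9.93, 9.98, 9.93 and 9.91, against 8.46, 9.28 and 9.9, and rose by 0.73 ± 0.0368. The arrays were separate by a narrow gap, and the change against glucosamine was 0.10. With only arrays at the lower bioB level the change was 0.43 for Rdl, 0.54 for nSyb, 0.38 for brp and 0.33 for futsch.

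Among 32 neuropeptide precursors 14 rose, 2 fell and 4 were above all 22 arrays. Proc, the proctolin precursor, had levels of 4.74, 4.61, 4.57 and 4.71, against 3.49, 3.77 and 4.34, the highest mean of the 15 groups (change 0.90 ± 0.0846, adjusted p = 9.46e-13). Crz, the corazonin precursor, was at 8.09 to 8.32 with quinapril and 6.92 to 8.08 with the others and rose by 0.60 ± 0.0388. Capa, a precursor of diuretic peptides, rose by 0.55 ± 0.0552. Pdf, the peptide of the clock neurons, was at 9.95 to 9.99, against 9.11, 9.66 and 9.83 as the lowest, median and highest elsewhere (0.32 ± 0.0393). Ilp2, an insulin-like peptide of the brain, rose by 0.47 ± 0.0352. Clock genes moved in both directions: of 11 measured, 4 rose, 5 fell and 2 were not called, beside 21.8% higher and 26% lower over all genes. Clk, an activator, rose by 0.59 ± 0.0407 (0.31 on arrays at the lower bioB level). In contrast vri, tim and per, which are repressors or repress in turn, fell by 0.50 ± 0.0239, 0.29 ± 0.0258 and 0.28 ± 0.0537. The call of per was lost on arrays at the upper bioB level (-0.24, adjusted p = 0.0869). Of Clk, vri, tim and per only vri had no overlap, at 9.29 to 9.36 against 9.52 to 10.24. The other clock genes that rose are not named here, and neither is the 1 that lay above all 22 arrays. The labels state no time of day for the collection.

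**Figure D4:**
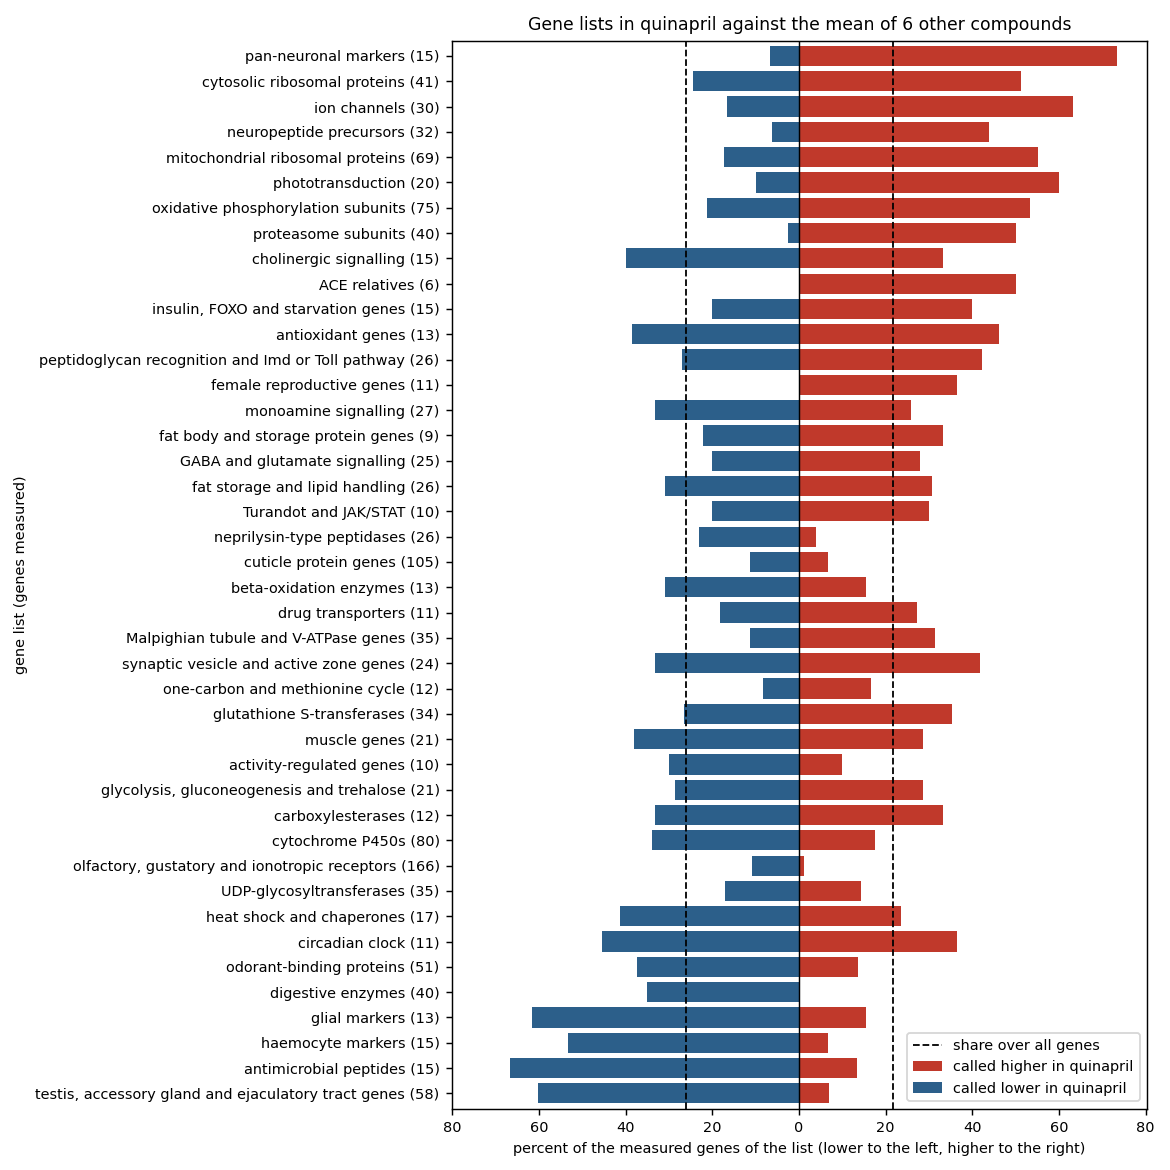
Share of the measured genes of 42 lists that limma called higher in quinapril (bars to the right) or lower (bars to the left), in percent, ordered by median change. Dashed lines mark the shares over all genes, 21.8% higher and 26% lower. Pan-neuronal, ion channel, phototransduction and mitochondrial ribosomal lists reach beyond the right line, and male reproductive, antimicrobial, glial and haemocyte lists beyond the left one.

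Glial markers fell more often than they rose. Of 13 measured 8 fell and 2 rose, with a median of -0.17, beside 26% lower and 21.8% higher over all genes. The glial transcription factor repo fell by 0.27 and the septate junction protein Gli by 0.44, both with no overlap. The astrocyte gene alrm fell by 0.72 ± 0.0329 but overlapped the others and was down by 0.36 on arrays at the lower bioB level. Gat, the GABA transporter of glia, fell by 0.55 ± 0.0556, and its call was lost on those arrays (-0.19, adjusted p = 0.052). Among the monoamine genes, Oct-TyrR, an octopamine and tyramine receptor, was at 5.08 to 5.29, against 5.31 to 6.3 (-0.61 ± 0.0660), whereas Tbh, which makes octopamine from tyramine, rose by 0.53 ± 0.0773 with no overlap.

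Genes of protein synthesis, protein turnover and respiration rose more often than they fell, with small changes. The counts were 21 of 41 cytosolic ribosomal proteins (10 fell), 38 of 69 mitochondrial ribosomal proteins (12 fell), 40 of 75 subunits of oxidative phosphorylation (16 fell) and 20 of 40 proteasome subunits (1 fell). The shares over all genes were 21.8% higher and 26% lower. The median changes of these lists were 0.19, 0.13, 0.11 and 0.11. RpS7 and RpS26 rose by 0.78 ± 0.0388 and 0.61 ± 0.0261 with no overlap (RpS7 by 0.32 as the mean of its probe sets), as part of 8 ribosomal proteins above all other arrays and 3 below. Over all genes 2.31% lay above and 3.21% below. The complex I subunits ND-ASHI and ND-B22 rose by 0.82 ± 0.0402 and 0.82 ± 0.0316, levy of complex IV by 0.77 ± 0.0360, and the proteasome subunit Rpn5 by 0.75 ± 0.0341. All 4 overlapped the other compounds, and mannitol was nearest for each. A second quantile normalization left a median of 0.06 for the cytosolic ribosomal proteins.

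Antimicrobial peptides, haemocyte markers and heat shock genes fell more often than they rose, while other immune and stress lists did not. Genes of peptidoglycan recognition and the Imd or Toll pathway rose in 11 and fell in 7 of 26. Antioxidant genes rose in 6 and fell in 5 of 13, and Turandot and JAK/STAT genes rose in 3 and fell in 2 of 10. Of 15 antimicrobial peptides 10 fell and 2 rose, beside 26% lower and 21.8% higher over all genes. Their list mean depended on the compound set beside it. It was 8.86 with quinapril, above gemfibrozil (8.72) and levetiracetam (8.73). It was below glucosamine (8.92), moxifloxacin (9.01), mannitol (9.16) and olmesartan (9.51). BomS5, a Bomanin induced through Toll, was at 11.2 to 11.31 with quinapril, against 11.5 to 11.91 with the others (-0.41 ± 0.0298), and the cecropin CecB fell by 0.50 ± 0.0690, while BomT3 rose by 0.52 ± 0.0325. Of 15 haemocyte markers 8 fell and 1 rose, but the list mean of 5.47 to 5.5 lay within the span of the other compounds (5.44 to 6.01). The scavenger receptor Sr-CI fell by 0.62 ± 0.0684 and the matrix protein Ppn by 0.54 ± 0.0376, both below all other arrays, yet Hml, a defining haemocyte marker, had a change of 0.02 (adjusted p = 0.827), or 0.15 without the mannitol group (adjusted p = 0.00872). Among 17 heat shock and chaperone genes 7 fell (41.2%) and 4 rose (23.5%). The small heat shock proteins Hsp27 and Hsp26 fell by 0.90 ± 0.0602 and 0.75 ± 0.0576, values that were -0.58 and -0.43 without the gemfibrozil group, where both were high, and -0.50 and -0.34 on arrays at the lower bioB level. The co-chaperone stv fell by 0.39 ± 0.0271, at 9.21 to 9.25 against 9.31 to 10.11. Digestive enzymes fell in 14 of 40 (35%) and rose in 0, all within overlapping arrays. The list was dim, with a mean level of 3.29 to 3.36 with quinapril and 3.32 to 3.65 with the others. These values lay below the array medians of 3.7 to 3.87. Of 51 odorant-binding proteins 19 fell (37.3%) and 7 rose (13.7%). Os-C, expressed in the antenna, was at 3.9 to 4.3 with quinapril and 3.97 to 7.45 with the others (-1.73 ± 0.0808).

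The same drug was also fed with PTZ, a convulsant that blocks GABA-gated chloride channels, and those arrays allowed a comparison that shares none with the one above. PTZ with quinapril was set against the mean of PTZ with levetiracetam, glucosamine, mannitol and olmesartan, and beside it quinapril without PTZ against the mean of those 4 compounds. With PTZ, 2185 probe sets were called higher (11.6%) and 2256 lower (12%), 23.7% in all. Arrays of PTZ with quinapril had 5′ minus 3′ control signals of -5.95 to -5.61, against -4.45 to -3.92 for PTZ with levetiracetam, and with this signal as a covariate 1126 were called lower. The bioB control was at the lower level on all 4 and at the upper level on every array of PTZ with glucosamine or mannitol. With the bioB level as a block 1357 were called higher. Most of what set quinapril apart without PTZ was not repeated. Of the 882 probe sets whose quinapril arrays did not overlap the others, 149 were called the same way with PTZ, 232 the opposite way and 501 not. The sign was shared by 43.1%, beside 43.5% of all probe sets. Across the 882 probe sets, which are not independent, the changes had r = -0.31, beside r = -0.16 over all probe sets.

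**Figure D5:**
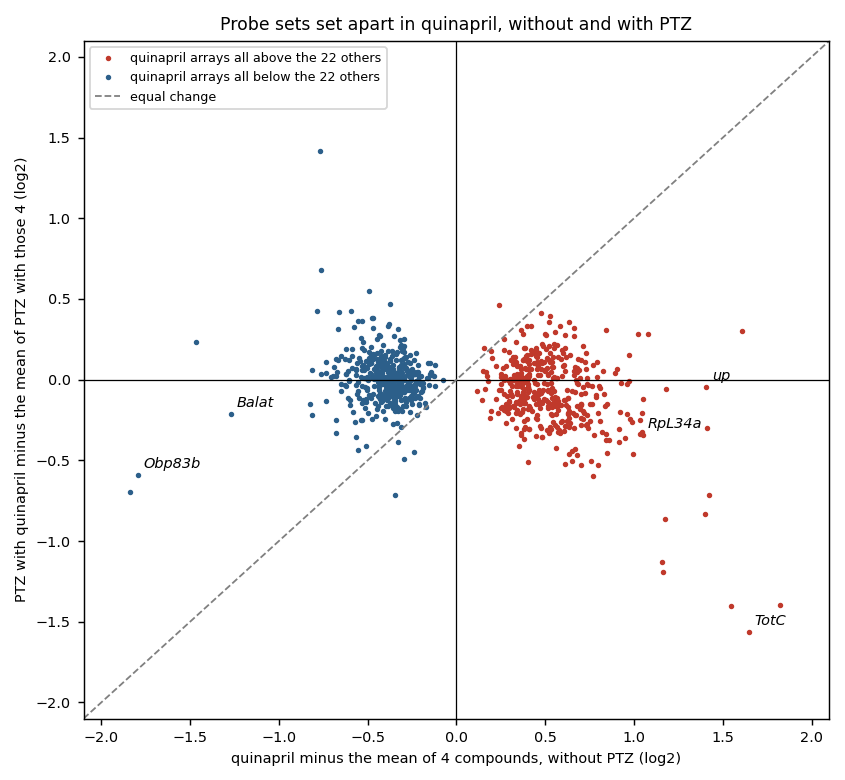
Change of 882 probe sets in quinapril against the mean of 4 compounds without PTZ (horizontal axis, log2) and in PTZ with quinapril against the mean of PTZ with those 4 (vertical axis, log2). Red points had all quinapril arrays above the 22 others and blue points below. TotC lies far below the dashed line of equal change.

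The change of TotC was 1.65 ± 0.0604 without PTZ and -1.56 ± 0.0604 with it. Its mean level was 5.05 ± 0.13 in PTZ with quinapril, against 8.70 ± 0.075 in PTZ with levetiracetam, 7.21 ± 0.081 with glucosamine, 5.58 ± 0.11 with olmesartan and 4.97 ± 0.19 with mannitol (SD, n = 4 each). The lower value with PTZ was thus greatest against levetiracetam and glucosamine (-3.65 and -2.16), and PTZ with quinapril was 0.08 above PTZ with mannitol. Of the 15 genes with the greatest rises, 4 were called higher with PTZ, 6 lower and 5 not. RpL34a, CG5273, Xe7, TM4SF and CG1316 joined TotC among the lower ones, with changes of -0.34, -0.46, -0.24, -0.21 and -0.32. Of the 15 greatest falls, 4 were called lower with PTZ and 0 higher: Obp83b (-0.59), Balat (-0.21), Bcat (-0.15) and CG33468 (-0.33). Leaving out 1 array of PTZ with quinapril in turn ended the calls of CG33468 and CG1316 in 2 of 4 fits each and that of Msp300, one of the 4 higher, in 3 of 4. Cyp12d1-d had a change of -1.47 without PTZ and 0.23 with PTZ (adjusted p = 0.0503).

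Several genes, chosen after their values were seen, were called the same way on both sets of arrays, against the 4 compounds each time (44.8% of all genes were called without PTZ and 26.8% with it, and 36.3% of probe sets or 41.5% of genes for the difference). Rdl rose by 0.47 without PTZ and 0.41 with it (adjusted p of the difference 0.381), futsch by 0.38 and 0.33 (0.414), brp by 0.40 and 0.36 (0.74) and Clk by 0.45 and 0.53 (0.295). Among falls, tim gave -0.33 and -0.31 (adjusted p of the difference 0.678), Hsp26 -0.66 and -0.71 (0.695), and Ppn -0.56 and -0.43 (0.0745). A p above the threshold does not show that these changes were equal. Pan-neuronal genes rose in 7 of 15 with PTZ and fell in 1, beside 12.6% higher and 14.1% lower over all genes. Phototransduction genes did not follow, with 3 of 20 higher and 8 lower, nor did proteasome subunits, with 3 of 40 higher and 15 lower. Acer had a change of 0.14 without PTZ and -0.23 with it, and Ance-4 0.01 and -0.23. Cyp4g1 had a change of -0.76 without PTZ and -3.34 with it, a difference that was called (adjusted p = 2.83e-22).

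Normal food was no part of the reference and serves as a control level. Against it, quinapril heads had 4706 probe sets higher (25.1%) and 4501 lower (24%), 49.1% in all. Over all genes the shares were 30% higher and 29.9% lower (60% in all). All 30 genes with the greatest rises and falls were called in the same direction against normal food. They were chosen on the same quinapril arrays, so the shared direction is not independent support. The changes were 2.80 for TotC, 1.99 for up, 1.81 for RpL34a, -3.48 for CG5107, -1.70 for Obp83b and -1.30 for Balat. Male reproductive genes were lower in 49 of 58, with a median of -1.79, and Acp98AB had a change of -7.01. Mitochondrial ribosomal proteins were higher in 56 of 69 and proteasome subunits in 26 of 40. Pan-neuronal genes, in contrast, were higher in 7 of 15 and lower in 7. Antimicrobial peptides were higher in 10 of 15 and lower in 2, with a median of 0.39. Haemocyte markers were higher in 8 of 15 and lower in 2, with a median of 0.24. Both lists had fallen more often than they rose against the other compounds. Heat shock and chaperone genes were higher in 5 of 17 and lower in 8.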

How the data were processed

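Head RNA (250 ng, 3′ IVT labelling, per the labels' protocols) was measured on Affymetrix Drosophila Genome 2.0 arrays. The deposited values are log2 levels from RMA, a method that the submitters' processing notes name beside limma without a version. Quantile normalization within RMA removes a shift shared by most transcripts, and differences of dim probe sets are compressed. The medians of the arrays were 3.7 to 3.87. Of 18952 probe sets, 183 controls were left out. In the platform annotation 13647 have 1 gene symbol, 402 several and 4720 none; 13544 were matched to RefSeq for current symbols. The brightest probe set stood for each of 11982 genes.

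Groups came from the labels. A single limma fit over 58 arrays (limma 3.58.1 under R 4.3.3), with each group's mean as a term, gave all comparisons (43 residual and 3.88 prior degrees of freedom), adjusted within each. The code was tested on simulated data. Named genes were the 15 greatest rises and 15 greatest falls among called genes without overlap, all 6 angiotensin-converting enzyme relatives, and up to 4 called members per list; other list members named were chosen after their values were seen. The members and the 42 lists were chosen with earlier results of these data known. Figures used Python 3.11.15 and matplotlib 3.10.9. Same-numbered arrays did not deviate together, and the alternatives tried are given in the closing section.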

Additional observations from a re-analysis of the deposited data

Results flagged for a closer look

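Array replicate 4 of quinapril stood apart from the other 3 in the bioB control, with a bioB minus bioC of -1.37, and the counts without it are among those given for arrays left out in turn. Single quinapril arrays also lay far from the other 3 for para (5.75 in replicate 1), stv (9.25 in replicate 1), Ance (6.89 in replicate 2), qvr (10.43 in replicate 2), Cyp4s3 (5.11 in replicate 2), Sr-CI (4.75 in replicate 3) and Msp300 (9.43 in replicate 4). In all, 8 of 96 values tested among quinapril arrays were marked, and chance marks about 1 in 20.

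The change without PTZ minus the change with PTZ was called by limma for all 30 genes with the greatest rises and falls, but these genes were chosen by the change without PTZ that enters the difference, so the values are a description and the calls support nothing. Among the rises the difference was 3.21 for TotC, 1.45 for up, 1.45 for CG5273, 1.39 for RpL34a, 1.37 for CG1316, 1.31 for CG42355, 1.22 for Xe7, 1.18 for TM4SF, 1 for Rbp6, 0.95 for CG9003, 0.89 for MAN1, 0.84 for CG31221, 0.8 for CG12239, 0.68 for Msp300 and 0.25 for Hk. Among the falls it was -1.7 for Cyp12d1-d, -1.2 for Obp83b, -1.05 for Balat, -0.84 for hep, -0.8 for CG31955, -0.78 for meso18E, -0.72 for Dyro, -0.7 for Loxl2, -0.67 for Bcat, -0.66 for CG5107, -0.6 for lncRNA:CR32368, -0.6 for TpnC4, -0.5 for jp, -0.48 for Nadsyn and -0.35 for CG33468. The quinapril arrays with PTZ all lay at the lower bioB level, and their 5′ minus 3′ control signal was -5.95 to -5.61, against -5.59 to -5.46 without PTZ. The part of these measures in the differences was not tested.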

How the results depend on the processing

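All 30 genes with the greatest rises and falls were called with the same sign under each of the 43 alternatives other than group means as units. These genes were chosen for large changes without overlap, and the alternatives refit the same arrays. Their stability therefore follows largely from the choice. Of the 90 named genes that were called, 11 lost their call under at least 1 of them and 0 changed sign. The 4 named genes that were not called (Ance, Ance-2, Ance-5 and Hml) each had the other sign under at least 1.

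The fit with group means as units, where only 7 means remain, left 0 calls in either direction. Its smallest adjusted p from limma was 0.959, and 3.65% of probe sets had an unadjusted p under 0.05. That share was below the fraction of 0.05 expected if no probe set differed. Whether the small number of means accounts for the lack of calls was not tested. Without the mannitol group 757 probe sets lay above and 762 below all remaining arrays, against 453 to 637 above and 487 to 565 below without 1 of the other groups; the cause was not tested. With only arrays at the lower bioB level the counts were 1511 and 1412, from fewer arrays. With the 5′ minus 3′ signal as a covariate, 1126 probe sets were called lower in PTZ with quinapril, 1942 higher for the difference from the PTZ change and 2979 higher against normal food, and Ance-5 with PTZ had a change of 0.04 in place of -0.11; the cause was not tested. Settings chosen after seeing the data used the bioB level. As a block it gave 1357 probe sets higher in PTZ with quinapril and 1730 higher against mannitol. Only arrays at the upper level, with 1 quinapril array assumed to vary like the other groups, gave 1990 called higher, 1962 lower, 1842 above and 2209 below.

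Leaving out 1 quinapril array in turn gave 3467 to 3659 probe sets higher and 3383 to 3437 lower. With the replicate number as a block, which same-numbered arrays did not bear out (2 of 22 pairs correlated above 0.1), 3856 were called higher and 3783 lower. Dim probe sets limit the odorant receptors, Ance-2, the digestive enzymes and the male reproductive genes.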

Other observations

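The called probe sets that rose by at least 2-fold often had a brighter probe set of the same gene that moved less. Of the 34 such rises, 12 belonged to a gene that had a brighter probe set, against 1 of the 29 falls. For 7 of the 12 the brighter probe set moved by less than 0.2. These genes were picked out after their values were seen. A dimmer probe set of jdp, a J-domain protein, rose by 1.52 ± 0.0787 while its brightest one had a change of -0.16. The same contrast was seen for Pis, the phosphatidylinositol synthase (1.26 against -0.02), Ank2, the neuronal ankyrin (1.24 against 0.01), and sls, the titin-like protein of muscle (1.03 against 0). Which probe set represents the gene was not tested.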
